A study of Homo sapiens with 6 samples.

Results

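Segmental duplications are stretches of the human genome that were copied to further places, so that near-identical genes now lie side by side or scattered along a chromosome arm. Some gene families recur at the centre of many such blocks and are called core duplicons. Among them are NPIP (nuclear pore complex interacting proteins) on chromosome 16, NBPF (neuroblastoma breakpoint family) on chromosome 1, LRRC37 (leucine-rich repeat proteins) on chromosome 17 and GOLGA8 (golgin A8) on chromosome 15. Other families with the same history derive from a single-copy gene that is still present, such as RGPD from RANBP2, SMG1P from SMG1, PMS2P from PMS2 and PDXDC2P from PDXDC1. Many of their copies are transcribed although they are pseudogenes.

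These families were examined in a native RNA immunoprecipitation experiment (RIP-seq), in which a protein was pulled from nuclear lysate without crosslinking and the RNA that came with it was sequenced. The protein was ORC1, the subunit of the origin recognition complex (ORC) that is first to bind chromatin where DNA replication will start. All 6 libraries came from untreated, asynchronous HCT116 cells, a human colorectal cancer line, and comprised 3 inputs of nuclear RNA taken with no antibody and 3 immunoprecipitates with an ORC1 antibody (ORC1 IP). By the labels the replicates are separate RIP experiments. Neither the labels nor the methods say whether they came from separate cultures, so p-values measure only the spread between these experiments, part of which may be technical. The study aimed to find RNAs that associate with ORC1 in the nucleus. No library of a control antibody was analysed here, so every value compares ORC1 IP with input only. In bulk libraries, more cells with a transcript and more transcript per cell cannot be told apart.

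Members were taken by gene symbol from the 23013 genes of the deposited table, and 63 genes met the rule. The families were chosen from measured values of the same contrast, the ORC1 IP over input folds of this table, so that all fold changes, counts called and orders of members are given as a description, with no test. The rule also took TBC1D30, TBC1D31 and TBC1D32, single-copy genes that share only the letters of their symbols with the TBC1D3 family, and these are described apart. The remaining 60 genes comprised 13 NBPF, 12 LRRC37, 10 NPIP, 5 GOLGA8, 5 AGAP (AGAP4 to AGAP8), 4 PMS2P, 3 ANKRD36, 3 RGPD and 2 GOLGA6 genes, and 1 each of TBC1D3 (TBC1D3F), SMG1P (SMG1P1) and PDXDC2 (PDXDC2P). By Ensembl identifier, 51 of the 63 were found in GENCODE v44 (GRCh38). Of the 48 of these in the duplicated families, 28 were protein coding, 18 pseudogenes and 2 long non-coding RNAs. The 12 without a match have no position or length below, among them AGAP7, AGAP8, GOLGA6L20, TBC1D3F, LRRC37A9P, NBPF10, NBPF20 and NBPF14.

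Recovered reads on genes numbered 13703033 to 17248924 in the inputs and 25134156 to 36008733 in the ORC1 IPs. ORC1 IP 2 stood apart from the other ORC1 IPs in MALAT1, a nuclear long non-coding RNA. MALAT1 was at 116695 normalised counts there against 27277 and 10644 in ORC1 IPs 1 and 3. KRT18, an epithelial keratin, was lowest in ORC1 IP 2, at 2794 against 31691 and 8408. ORC1 IPs 1 and 3 also differed widely in KRT18, and its inputs ranged from 6906 to 31753. The epithelial label was borne out by EPCAM, KRT8, KRT18, KRT19, CDH1 and CLDN7, which were listed at 560.3 or more in every library, while LGALS4 was not listed. Of markers of other cell types, PTPRC, COL3A1 and PECAM1 were not listed, ALB and GFAP were at 6.97 or less, and COL1A1 was at 161 to 787.

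How alike the copies are bears on each value, because a read that fits several copies has no single origin. The following families serve as examples, each with a 100-base window of the coding sequence in GENCODE v44 transcripts that was picked for having the fewest differences from the first copy, with at least 1 in each other copy. In each group the first sequence is in lower case throughout, and capitals mark the bases at which a copy departs from it. Within NPIP, the windows begin at base 991 of the coding sequence of NPIPB5 and NPIPB4, base 343 of NPIPB3 and base 877 of NPIPB11.
NPIPB5: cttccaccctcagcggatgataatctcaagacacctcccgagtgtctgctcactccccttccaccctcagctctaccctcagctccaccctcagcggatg
NPIPB3: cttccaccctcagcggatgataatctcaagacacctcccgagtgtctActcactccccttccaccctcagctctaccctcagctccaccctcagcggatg
NPIPB4: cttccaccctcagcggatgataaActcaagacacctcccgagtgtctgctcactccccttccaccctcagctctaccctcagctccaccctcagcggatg
NPIPB11: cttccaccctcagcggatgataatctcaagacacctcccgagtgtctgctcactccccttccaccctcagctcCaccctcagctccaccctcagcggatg
The ANKRD36 copies were compared from base 581 of ANKRD36C and ANKRD36 and base 545 of ANKRD36B.
ANKRD36C: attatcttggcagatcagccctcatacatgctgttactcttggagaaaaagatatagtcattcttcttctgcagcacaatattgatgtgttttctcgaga
ANKRD36: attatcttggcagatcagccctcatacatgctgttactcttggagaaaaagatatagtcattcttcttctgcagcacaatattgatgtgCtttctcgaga
ANKRD36B: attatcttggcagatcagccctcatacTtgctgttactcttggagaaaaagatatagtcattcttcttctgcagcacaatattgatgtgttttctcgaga
GOLGA8A and GOLGA8B were compared from bases 1611 and 1701.
GOLGA8A: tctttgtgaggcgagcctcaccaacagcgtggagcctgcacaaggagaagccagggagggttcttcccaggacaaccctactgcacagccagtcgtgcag
GOLGA8B: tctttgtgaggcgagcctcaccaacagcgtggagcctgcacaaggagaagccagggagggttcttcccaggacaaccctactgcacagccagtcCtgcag
NBPF1 and NBPF3, the NBPF genes with the highest count and the lowest fold change, were compared from bases 261 and 429.
NBPF1: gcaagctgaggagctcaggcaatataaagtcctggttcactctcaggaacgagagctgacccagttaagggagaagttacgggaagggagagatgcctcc
NBPF3: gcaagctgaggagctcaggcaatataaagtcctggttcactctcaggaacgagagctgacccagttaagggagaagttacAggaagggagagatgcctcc
Every copy shown differs from the first of its group at 1 base, so that a read within such a window can be assigned between the copies shown only if it spans that base.

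Over whole transcripts, likeness was measured as the share of 50-base stretches of the longest transcript that also occur in transcripts of other genes. Of 48 duplicated members with a transcript, 36 shared at least 50% and 24 at least 80%. NPIPP1, SMG1P1, PMS2P1, PMS2P3 and PMS2P4 shared 100%. At the other end, NBPF23 shared 1.40%, LRRC37A6P 5.54%, LRRC37A16P 10.1%, NBPF3 16.3% and LRRC37B 20.8%. The sources used here do not give the authors' handling of reads that match several places. Values of single copies in the most alike families are therefore uncertain. The sum over a family, which does not change when reads are shared out differently among its listed copies, is given beside them, but it is as uncertain as a single copy where reads are shared with genes outside the sum. Stretches shared within the family, counting its GENCODE genes whether listed in the table or not, made up 46.1% in PMS2P1, 32.6% in PDXDC2P, 39.5% in LRRC37BP1 and 1.53% in LRRC37A15P, of totals of 100%, 79.3%, 86.3% and 83.4%. The SMG1P, PDXDC2 and TBC1D3 sums each rest on 1 gene. Reads discarded for matching several places would be missing from every sum.

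Members were higher in ORC1 IP than in input in most families, and the size differed widely between families. Of the 63 members, 46 averaged 10 or more normalised counts across the libraries and entered the fit across 16513 genes, and 17 did not. The average took inputs and ORC1 IPs together, so that genes low in the inputs could enter through high ORC1 IPs. NPIPB11, for example, had a mean of 0.39 in the inputs and 25.4 in the ORC1 IPs. Fold changes are given as log2 differences between the mean of 3 ORC1 IPs and that of 3 inputs of log2(normalised count + 1). Adding 1 shrinks the folds of genes with low counts. A mean of logs can instead enlarge a fold where single inputs are at or near 0. NPIPP1, for example, was at 4.51 here and at 3.54 with DESeq2 on recovered reads. Of the 46, 44 had a positive log2 fold change and 2 a negative one, with a median of 2.04, where the median of all genes tested was 0.01. Scaling by total count moved the median of all genes to -0.19 and left 38 of 43 tested duplicated members positive, against 41. Without the 3 TBC1D30 to TBC1D32 genes the median was 2.07. Without a count minimum the median of members was 1.78. With limma and an adjusted p under 0.05, 21 members passed as higher and 0 as lower, where 2.28% of all genes tested passed as higher and 1.42% as lower. Scaling by total count cut these calls to 5 members and, over all genes, from 376 to 88 higher. In 35 of the 46, all 3 ORC1 IPs lay above all 3 inputs, as they did in 12.7% of all genes tested. Since the families were chosen on this contrast, nothing is read from these shares. Of the 100 largest fold changes among all genes tested, 14 were of members, and of the 500 largest, 24.

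**Figure D1:**
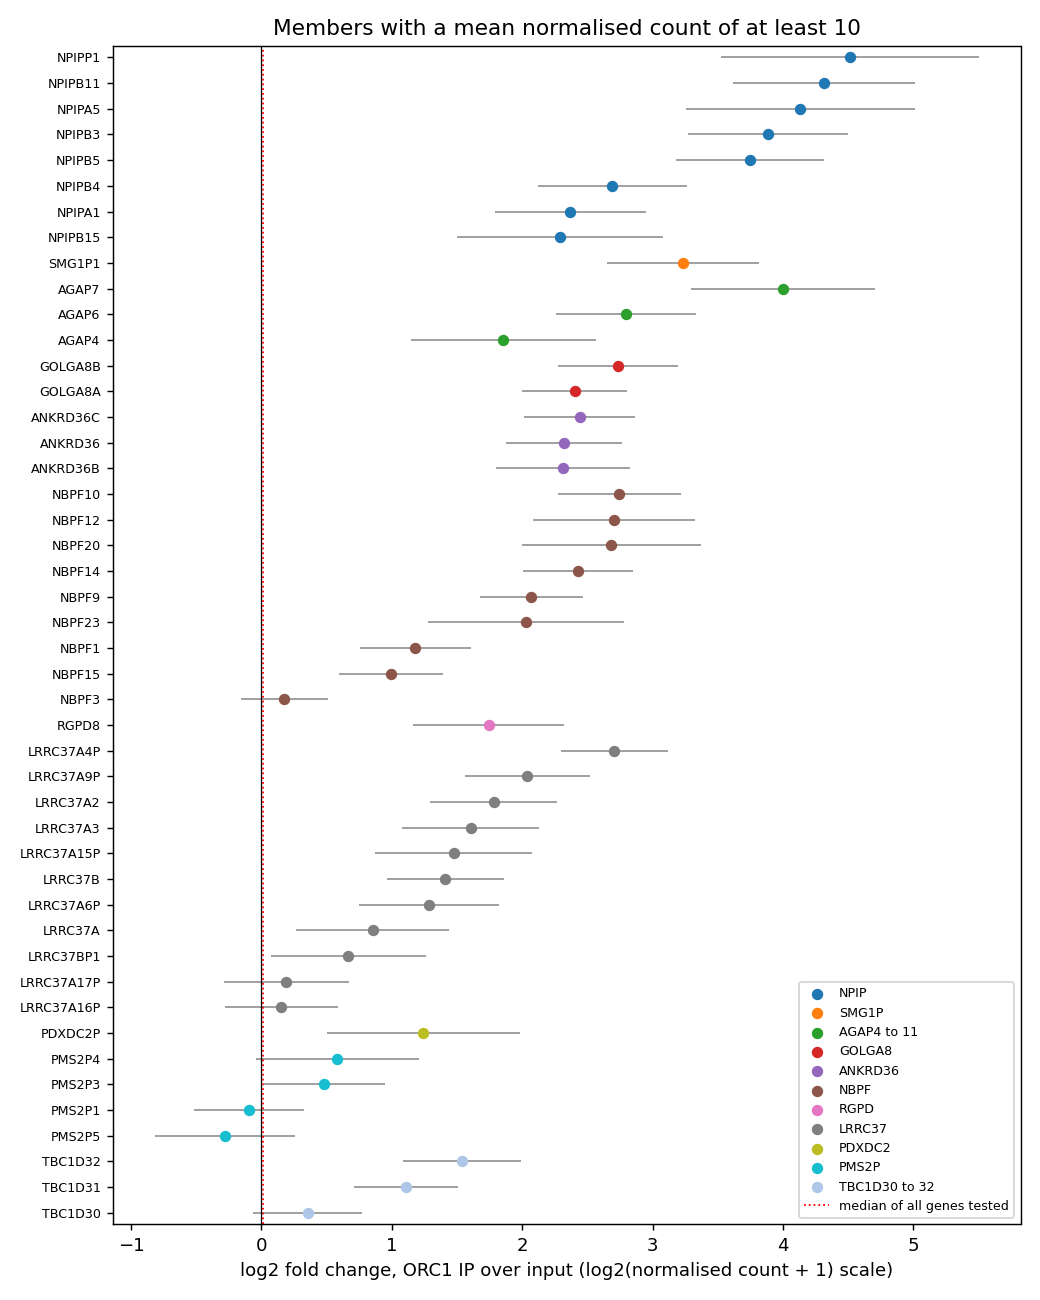
Log2 fold change of ORC1 IP over input (x axis, log2(normalised count + 1) scale) for the 46 members that averaged 10 or more normalised counts (y axis, grouped and coloured by family). Points are differences of the means of 3 libraries per group, bars are standard errors from limma, and the dotted line is the median of all genes tested, 0.01. NPIP genes lie between 2.29 and 4.51, whereas PMS2P genes lie between -0.28 and 0.58.

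Sums over each family also differed most in NPIP and least in PMS2P on the log2(sum + 1) scale. NPIP sums were 84.4, 34.7 and 29.3 across inputs 1 to 3 and 547, 680.4 and 336 across ORC1 IPs 1 to 3, that is 49.4 ± 30.4 in the inputs and 521 ± 174 in the ORC1 IPs (SD, n = 3), a log2 difference of 3.47. The lowest ORC1 IP was thus above the highest input. SMG1P1, the only SMG1P gene listed, differed by 3.23, AGAP4 to AGAP8 together by 2.76, GOLGA6 by 2.76, GOLGA8 by 2.50 and ANKRD36 by 2.35. TBC1D3F differed by 2.20, NBPF by 1.48, RGPD by 1.43, PDXDC2P by 1.24 and LRRC37 by 1.15, and PMS2P by 0.16, or -0.048 when scaled by total count. Inputs and ORC1 IPs overlapped in TBC1D3F, PDXDC2P and PMS2P and in none of the other duplicated families. Without input 3, SMG1P1 at 3.37 was above NPIP at 3.18, and as a plain ratio of means TBC1D3F (13.2) and SMG1P1 (11.4) were above NPIP (10.5). Single libraries moved the low families most, with TBC1D3F at 1.33 without ORC1 IP 2 and 3.02 without ORC1 IP 1, and PDXDC2P at 0.53 without ORC1 IP 2 and 1.97 without ORC1 IP 3. All 60 genes together took 0.0142 to 0.0223% of gene counts in the inputs and 0.0365 to 0.0636% in the ORC1 IPs, so that they were a small part of either RNA pool.

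**Figure D2:**
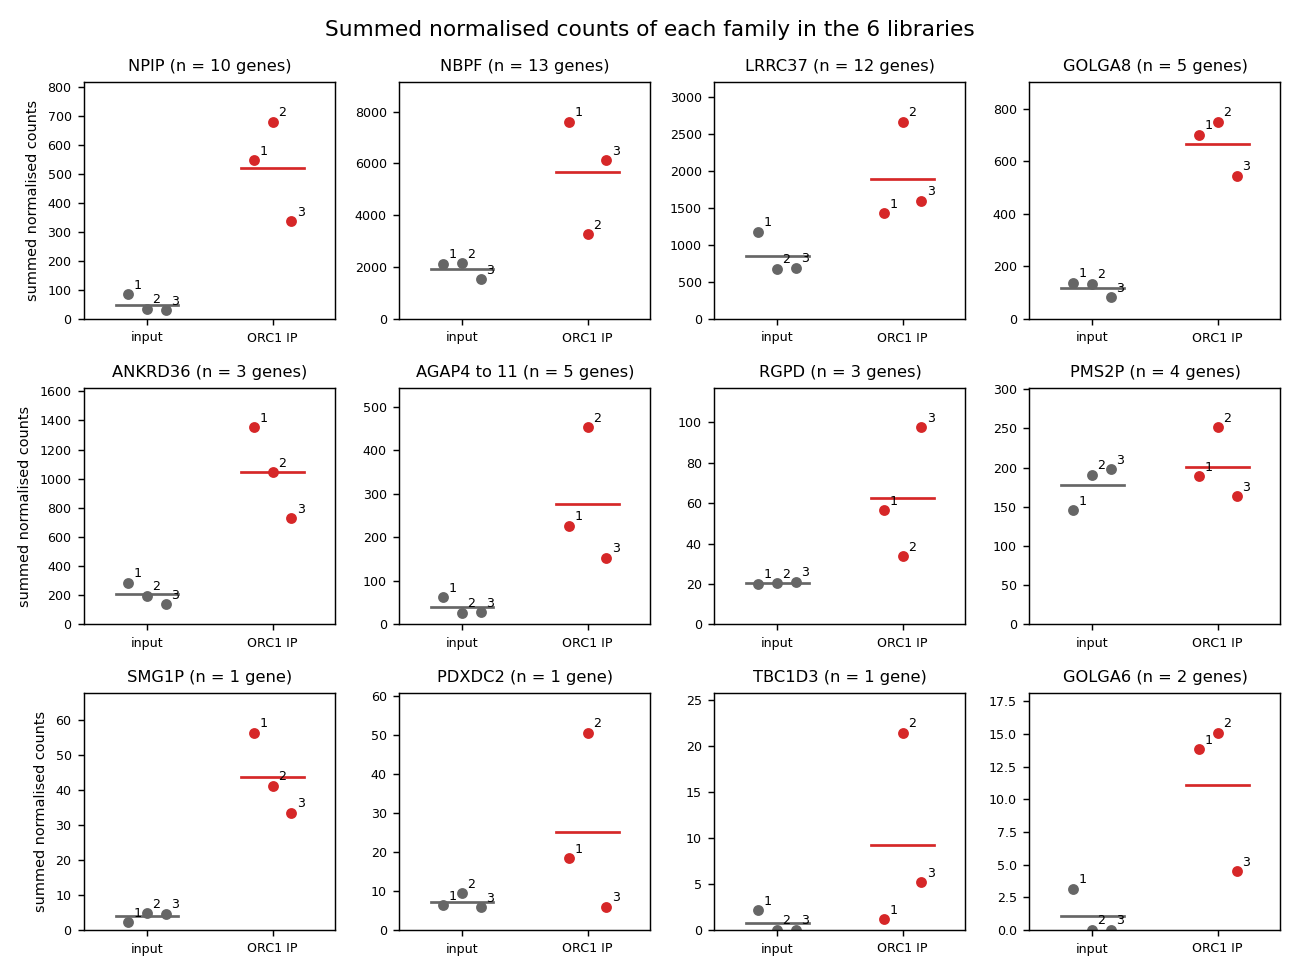
Summed normalised counts of each duplicated family (y axis, linear scale from 0) in the 3 inputs (grey) and 3 ORC1 IPs (red), with the replicate number beside each point and a line at the group mean. In NPIP the inputs lie between 29.3 and 84.4 and the ORC1 IPs between 336 and 680.4, while in PMS2P the groups overlap.

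NPIP had the highest median fold change of the families in the limma fit, 3.82. The single gene SMG1P1 came out above the NPIP median with DESeq2 (3.54 against 3.28), with edgeR (3.50 against 3.46) and without a count minimum (3.23 against 3.22). NPIP genes take their name from a resemblance to a nuclear pore protein and lie on chromosome 16, on the short arm except for NPIPB15, and the 10 listed genes comprised 9 protein-coding genes and the pseudogene NPIPP1. All 8 tested genes had log2 fold changes of 2.29 to 4.51, 7 passed the threshold, and in all 8 the groups did not overlap. NPIPP1 (GRCh38 chr16:15104330-15123498, minus strand) had normalised counts of 32.7, 4.73 and 0 across inputs 1 to 3 and 99.0, 246 and 92.4 across ORC1 IPs 1 to 3. The 3 inputs of NPIPP1 alone ranged from 0 to 32.7, and its fold change of 4.51 ± 0.99 (SE) had a wide error. It was 5.79 without input 1 and 3.25 without input 3. With DESeq2 and edgeR on recovered reads it was 3.54 and 3.51, below AGAP7 at 4.71 and 4.60. NPIPP1 lies within PDXDC1, which is on the opposite strand and had a mean of 2197 normalised counts. The sources used here do not give the strand setting of the counting. On its own strand NPIPP1 overlaps ENSG00000270580, with a mean of 6.62, by 18776 bases. NPIPA1 and NPIPB3, with means of 35.5 and 42.9, overlap genes with higher counts on their own strand. These are ENSG00000183458 (12907 bases, mean 114) and ENSG00000180747 (1490 bases, mean 103).

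NPIPB5 (chr16:22479121-22536535, plus strand) was at 7.39, 4.73 and 3.51 in the inputs and 119.7, 91.2 and 46.2 in the ORC1 IPs. NPIPB3 (chr16:21402237-21448567, minus strand) was at 3.17, 9.46 and 2.34 in the inputs and 116, 73.2 and 52.9 in the ORC1 IPs. Both were higher by 3.75 or more on the log2 scale, with fold changes of 3.75 ± 0.57 (SE) and 3.88 ± 0.61 (SE), and both were highest in ORC1 IP 1. NPIPB4, which differs from NPIPB5 at 1 base of the window above, was at 8.44, 9.46 and 4.68 in the inputs and 73.7, 63.3 and 30.6 in the ORC1 IPs with 2.69 ± 0.57 (SE), and NPIPA1 at 17.9, 4.73 and 12.9 in the inputs and 56.4, 74.3 and 47.0 in the ORC1 IPs with 2.37 ± 0.58 (SE). Very few input reads stood behind some copies. NPIPB11 had 1 read in all inputs together and 98 in the ORC1 IPs, a ratio of 60.7 after scaling with an exact 95% counting interval of 10.6 to 2423. Here and below, such intervals pool reads over libraries and leave out the spread between experiments. They are descriptions, not tests. NPIPA5 was at 9.50, 0 and 0 in the inputs and 35.7, 44.7 and 32.8 in the ORC1 IPs, at 0 in 2 of the inputs. NPIPB15 (chr16:74376306-74392115, plus strand), on the long arm, had the lowest fold change of the family, 2.29 ± 0.79 (SE), and was at 4.22, 1.58 and 2.34 in the inputs and 8.06, 53.4 and 9.69 in the ORC1 IPs, with ORC1 IP 2 well above the others. The untested NPIPB6 and NPIPB8 had 2 and 1 input reads and 18 and 10 ORC1 IP reads.

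SMG1P1 and PDXDC2P lie on chromosome 16 like the NPIP genes. SMG1P1 is a pseudogene of SMG1, the kinase that starts nonsense-mediated decay. Its normalised counts were 2.11, 4.73 and 4.68 across inputs 1 to 3 and 56.4, 41.2 and 33.5 across ORC1 IPs 1 to 3. The lowest ORC1 IP was 7.09 times the highest input, and the log2 fold change was 3.23 ± 0.58 (SE). SMG1P1 (chr16:22437401-22491826, plus strand) overlaps NPIPB5 by 12706 bases on the same strand, so that some reads may belong to either. All of its 50-base stretches also occur in transcripts of other genes, and SMG1 was at 3776 or more normalised counts in every library. What part of the SMG1P1 reads came from SMG1 or other copies was not tested. The identifier of PDXDC2P is named PDXDC2P-NPIPB14P in GENCODE v44, a long non-coding RNA whose name also holds that of an NPIP gene. PDXDC2P, which derives from the pyridoxal-dependent decarboxylase gene PDXDC1, was at 6.33, 9.46 and 5.85 in the inputs and 18.4, 50.5 and 5.96 in the ORC1 IPs. ORC1 IP 3 lay among the inputs, and the fold change of 1.24 ± 0.74 (SE) did not pass the threshold.

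NBPF genes encode proteins with repeated Olduvai (DUF1220) domains and lie on chromosome 1, where copies are spread over both arms. The family had the highest sums of all, 1932 ± 352 in the inputs and 5662 ± 2206 in the ORC1 IPs (SD, n = 3). NBPF1 supplied 61.9% of the input sum and 50.1% of the ORC1 IP sum. NBPF1 (chr1:16562319-16613562, minus strand) was at 1339, 1390.0 and 859 across inputs 1 to 3 and 4137, 1687 and 2680.0 across ORC1 IPs 1 to 3, with every ORC1 IP above every input and a fold change of 1.18 ± 0.42 (SE), which did not pass the threshold. The fold change of NBPF10 was larger, 2.74 ± 0.47 (SE), with 180.4, 149.7 and 114 in the inputs and 1481, 440.1 and 1436 in the ORC1 IPs. NBPF12, NBPF14 and NBPF9 also passed, at 2.70, 2.43 and 2.07, whereas NBPF20 at 2.68 ± 0.69 (SE), NBPF23 at 2.03 and NBPF15 at 0.99 did not. ORC1 IP 2 was the lowest ORC1 IP in several of them, as in NBPF20, which was at 51.7, 69.3 and 21.1 in the inputs and 461, 81.9 and 566 in the ORC1 IPs.

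NBPF3 was the exception among the NBPF genes. Located at chr1:21440128-21485005, plus strand, it had normalised counts of 286, 276 and 319 across inputs 1 to 3 and 302, 386 and 313 across ORC1 IPs 1 to 3. The groups overlapped, and the log2 fold change was 0.18 ± 0.34 (SE), or -0.037 when scaled by total count. NBPF3 shared 16.3% of its 50-base stretches with other genes and NBPF1 44.8%, so that both are among the copies that reads tell apart more readily. Of the 4 untested NBPF genes, NBPF13P was at 2.11, 4.73 and 2.34 in the inputs and 12.7, 17.4 and 15.7 in the ORC1 IPs without overlap, NBPF16 was at 0 in 2 inputs, and NBPF2P and NBPF18P overlapped.

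LRRC37 genes encode leucine-rich repeat proteins that are known best from testis, and 9 of the 11 with a position lie on chromosome 17. All 11 tested genes had a positive fold change, of which LRRC37A16P turned negative (-0.060) when scaled by total count, with a median of 1.41 and a range of 0.15 to 2.71, and 2 passed the threshold. LRRC37A4P (chr17:45508109-45550335, minus strand), a transcribed pseudogene, was at 138, 70.9 and 63.2 across inputs 1 to 3 and 453, 713 and 552 across ORC1 IPs 1 to 3, with 2.71 ± 0.41 (SE). LRRC37A9P passed as well, with 2.04 ± 0.48 (SE). The gene with the highest counts, LRRC37A16P (chr17:68125777-68152468, minus strand), was also the one with the lowest fold change, 0.15 ± 0.43 (SE), and its groups overlapped, at 559, 277 and 397 in the inputs and 267, 726 and 437 in the ORC1 IPs. It made up 48.3% of the family sum in the inputs and 25.1% in the ORC1 IPs.

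Of the protein-coding copies, LRRC37B was at 77.0, 106 and 51.5 in the inputs and 227, 279 and 127 in the ORC1 IPs, LRRC37A2 at 29.5, 20.5 and 18.7 in the inputs and 78.3, 114 and 56.6 in the ORC1 IPs and LRRC37A3 at 50.6, 20.5 and 25.7 in the inputs and 71.4, 158 and 71.5 in the ORC1 IPs. Their log2 fold changes were 1.41, 1.78 and 1.60, none overlapped and none passed the threshold. LRRC37A, at 19.0, 7.88 and 9.36 in the inputs and 26.5, 23.8 and 14.9 in the ORC1 IPs, overlapped, with a fold change of 0.85. LRRC37A17P at 0.19 and LRRC37BP1 at 0.67, both pseudogenes, overlapped too. A pair of pseudogene copies away from chromosome 17, LRRC37A6P on chromosome 10 and LRRC37A15P on chromosome 4, were higher by 1.28 and 1.47 with no overlap, and neither passed. LRRC37A15P lies on the same strand within MANBA, whose mean of 589 normalised counts was far above its own. In 10 of the 11 tested LRRC37 genes ORC1 IP 2 was the highest ORC1 IP. It is also the ORC1 IP with the highest MALAT1 and the lowest KRT18, and the part of this in the LRRC37 values was not tested.

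GOLGA8 and GOLGA6 genes on chromosome 15 are copies related to GOLGA2, a golgin that tethers vesicles at the Golgi. GOLGA8B (chr15:34525095-34588503, minus strand) was at 93.9, 63.0 and 29.3 across inputs 1 to 3 and 385, 441 and 316 across ORC1 IPs 1 to 3, and GOLGA8A (chr15:34378935-34437808, minus strand) at 36.9, 63.0 and 45.6 in the inputs and 283, 275 and 212 in the ORC1 IPs. In both, the lowest ORC1 IP was above the highest input by a wide margin, with fold changes of 2.73 ± 0.46 (SE) and 2.40 ± 0.40 (SE). The GOLGA8 sums in ORC1 IPs 1, 2 and 3 were 701, 750.1 and 545. GOLGA8K had 0 reads in all 3 inputs and 20 in the ORC1 IPs, of which 16 were in ORC1 IP 2. Taking 3 reads over the 3 inputs as the most that a count of 0 allows, the pooled reads give a bound of 4.13-fold. This bound leaves out the counting error of the ORC1 IP reads and the spread between libraries. GOLGA8UP, at 5.28, 1.58 and 5.85 in the inputs and 20.7, 12.2 and 11.2 in the ORC1 IPs, did not overlap, while GOLGA8H did. GOLGA6L5P and GOLGA6L20 had 3 reads in all inputs together and 44 in the ORC1 IPs, a ratio of 9.09 with an exact 95% counting interval of 2.91 to 45.8. Such intervals cover counting error only.

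ANKRD36, ANKRD36B and ANKRD36C encode ankyrin repeat proteins related to ANKRD26 and lie on chromosome 2. Their folds were nearly equal. ANKRD36C (chr2:95836919-95991831, minus strand) was at 154, 58.3 and 76.1 across inputs 1 to 3 and 593, 491 and 387 across ORC1 IPs 1 to 3. ANKRD36 was at 85.5, 94.6 and 43.3 in the inputs and 515, 369.8 and 237 in the ORC1 IPs, and ANKRD36B at 46.4, 44.1 and 17.6 in the inputs and 245, 185 and 106 in the ORC1 IPs. The log2 fold changes were 2.44, 2.32 and 2.31, all 3 passed the threshold, none overlapped, and each copy was highest in ORC1 IP 1. ANKRD36C shared only 35.8% of its stretches with other genes, less than ANKRD36 with 57.9% and ANKRD36B with 70.1%. Per kilobase of longest transcript, ANKRD36C had a mean level of 12.8 in the inputs and 65.3 in the ORC1 IPs.

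AGAP4 to AGAP8 are copies on chromosome 10 related to AGAP1, which encodes a GTPase-activating protein for the small GTPase ARF. AGAP6 (chr10:49982190-50011654, plus strand) carried 75.9% of the family's input counts and was at 48.5, 20.5 and 19.9 across inputs 1 to 3 and 184, 352 and 113 across ORC1 IPs 1 to 3. Its fold change was 2.80 ± 0.54 (SE). AGAP6 overlaps LINC00843, with a mean of 15.8 normalised counts, by 29465 bases on the same strand. AGAP7 had 3 reads in all inputs together and 135 in the ORC1 IPs, a ratio of 27.9 with an exact 95% counting interval of 9.34 to 137. AGAP4 was at 7.39, 1.58 and 5.85 in the inputs and 12.7, 36.6 and 12.7 in the ORC1 IPs, with 1.86 ± 0.71 (SE), which did not pass. All 3 were highest in ORC1 IP 2. AGAP5 and AGAP8 were too low for the fit, and their groups overlapped.

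RGPD genes on chromosome 2 are fusions of copies of RANBP2, which encodes a nucleoporin that binds the GTPase RAN, and of a GRIP domain gene. RGPD8 was at 14.8, 7.88 and 18.7 across inputs 1 to 3 and 43.8, 27.9 and 79.0 across ORC1 IPs 1 to 3, with the highest value in ORC1 IP 3. The groups of RGPD8 did not overlap, and its fold change of 1.74 ± 0.58 (SE) did not pass the threshold. RGPD3 and RGPD4 were below the count minimum and overlapped. TBC1D3F, a copy in the TBC1D3 family with a domain of RAB GTPase-activating proteins, had 2 reads in the inputs and 45 in the ORC1 IPs, of which 37 were in ORC1 IP 2. The single-copy TBC1D30, TBC1D31 and TBC1D32, which the rule took by their letters, had fold changes of 0.35, 1.11 and 1.54, and none passed.

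PMS2P genes, pseudogenes of the mismatch repair gene PMS2 on chromosome 7, did not share the pattern of the other families. PMS2P1 (chr7:100328836-100335860, minus strand) was at 78.1, 85.1 and 117 across inputs 1 to 3 and 63.3, 109 and 91.7 across ORC1 IPs 1 to 3. PMS2P5 was at 17.9, 25.2 and 15.2 in the inputs and 13.8, 18.0 and 14.9 in the ORC1 IPs. Their log2 fold changes were -0.10 ± 0.42 (SE) and -0.28 ± 0.54 (SE), the only negative ones among the tested members. PMS2P3 at 41.2, 61.5 and 52.7 in the inputs and 94.4, 85.9 and 45.5 in the ORC1 IPs and PMS2P4 at 8.44, 18.9 and 12.9 in the inputs and 17.3, 38.3 and 11.2 in the ORC1 IPs had fold changes of 0.48 and 0.58. Inputs and ORC1 IPs overlapped in all 4, and none passed. The longest transcripts of these 4 genes are short, 516 to 772 bases, and their mean input levels of 25.1 to 174 normalised counts per kilobase were far above those of NPIP, at 0.0612 to 11.7.

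Fold changes were then set beside gene type and likeness. Of the protein-coding members of the duplicated families, 21 were tested, with a median fold change of 2.32 and a lowest value of 0.18. The 13 tested pseudogenes had a median of 0.67 and covered the whole range from -0.28 to 4.51. Most of them were LRRC37 or PMS2P genes, with family medians of 1.41 and 0.19, so that gene type and family cannot be told apart here. Within LRRC37, protein-coding genes ranged from 0.85 to 1.78 and these pseudogenes from 0.15 to 2.71. Members without a GENCODE match are left out. Among the 35 tested duplicated members with a transcript, likeness and fold change had a Spearman rho of 0.138. The median fold change was 1.28 in the 7 members that shared under 50% of stretches, 2.31 in 11 members from 50 to 80% and 1.86 in 17 members from 80 to 100%. Transcript length and fold change had a rho of 0.307 and likeness and mean normalised count one of -0.329. These values share their libraries and, within a family, their sequence, and are given as descriptions.

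**Figure D3:**
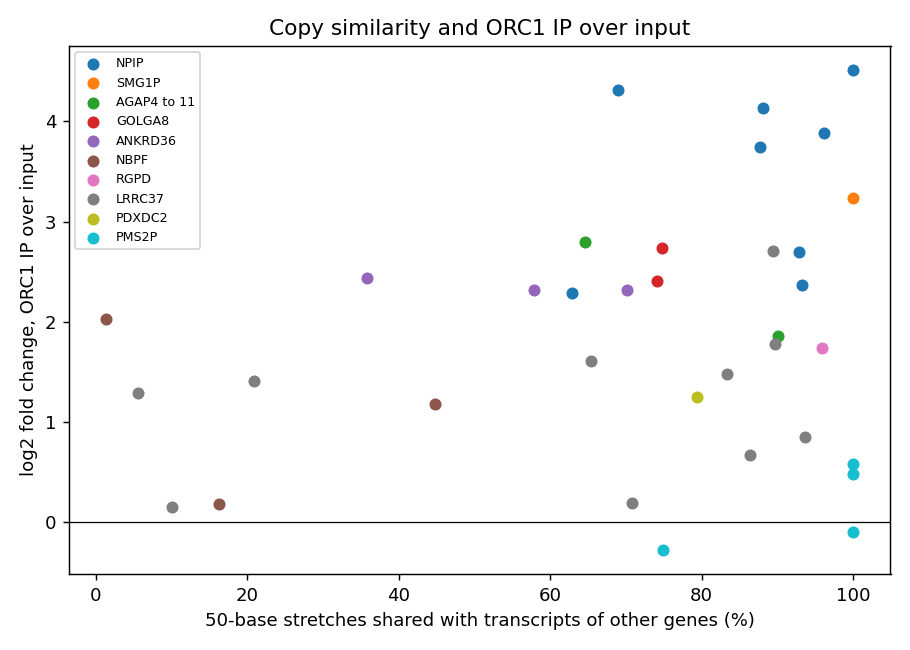
Share of 50-base stretches of the longest transcript found in transcripts of other genes (x axis, %) and log2 fold change of ORC1 IP over input (y axis, log2(normalised count + 1) scale) for tested members of the duplicated families with a transcript, coloured by family. Points at 100% include NPIPP1 at 4.51 and PMS2P1 at -0.10, so that copies with the same share span nearly the whole range.

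GAA repeats, which the study describes in RNAs that associate with ORC1, were sought as the letters GAAGAAGAA on the transcript strand, with overlapping matches counted as present once. The study instead derived its motif by a motif search over its own transcripts, so that the shares below cannot be set against its shares. It also reports that ORC1 does not bind RNA through this repeat. Of 48 duplicated members with a transcript, 11 (22.9%) held the motif in the longest transcript, against 10.98% of 22157 genes of the table. The members' transcripts were longer, with a median of 4065 bases against 2605. Among tested genes with transcripts of at least 4000 bases, 5 of 20 members (25%) and 20.1% of 6377 genes held it. The 4 PMS2P genes, where inputs and ORC1 IPs overlapped, all held the motif, while no NPIP or ANKRD36 transcript did. The others with it were GOLGA8A, GOLGA8B, GOLGA8H, GOLGA8K, LRRC37A4P, LRRC37A6P and LRRC37A17P. Over all genes tested, the median log2 fold change was 0.59 with the motif and -0.06 without it. From 4000 bases up these medians were 0.71 and 0.18. For tested duplicated members they were 0.58 and 2.16, and from 4000 bases up 2.40 and 2.31. Of the 9 tested members with the motif, 4 were the PMS2P genes. Copies of a family share their sequence, so that the medians of members do not rest on independent genes.

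Single-copy relatives were not part of the families. For these the test of the fit across all genes is given, with limma and adjustment over all 16513 genes. The list mixes source genes of copies, such as SMG1, with single-copy genes listed for a shared name, such as GOLGA4, GOLGB1 and LRRC40. It was drawn up with earlier results of these data known, so that it is no independent set. Of 20 listed relatives 19 were tested, with a median log2 fold change of 1.06, and 3 passed as higher and 0 as lower. Over all genes tested, 2.28% passed as higher and 1.42% as lower. ANKRD26, the single-copy relative of ANKRD36, was at 244, 80.4 and 91.3 in the inputs and 717, 972 and 1069 in the ORC1 IPs, a fold change of 2.89 ± 0.44 (SE) (limma, adjusted p = 0.00887). GOLGA4, a golgin of the trans-Golgi, was at 2506, 1117 and 730.2 in the inputs and 12039, 10201 and 11300.4 in the ORC1 IPs, with 3.13 ± 0.50 (SE) (limma, adjusted p = 0.00995). GOLGB1, or giantin, was at 2319, 908 and 849.5 in the inputs and 6497, 4665 and 10291 in the ORC1 IPs, with 2.48 ± 0.50 (SE) (limma, adjusted p = 0.0232). In these 3 genes the groups did not overlap. All 3 calls were lost without input 3, with limma adjusted p of 0.0713, 0.128 and 0.217, and without ORC1 IP 3, with 0.0538, 0.0517 and 0.0803. Without input 2, ANKRD26 kept an adjusted p of 0.0353 and the others had 0.0616 and 0.132.

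SMG1, the source of SMG1P1, was at 4349, 6637 and 3776 in the inputs and 20054, 8733 and 31283 in the ORC1 IPs, with a fold change of 1.88 ± 0.62 (SE) and no overlap (limma, adjusted p = 0.105). RANBP2 was at 3482, 6017 and 2607 in the inputs and 14657, 3357 and 30569 in the ORC1 IPs, with 1.59 ± 0.74 (SE) (limma, adjusted p = 0.231), and ORC1 IP 2 lay among its inputs. PDXDC1 had a fold change of 0.36 ± 0.40 (SE) and PMS2 of 0.27 ± 0.41 (SE), within the range of its pseudogenes (limma, adjusted p = 0.655 and 0.752). AGAP1, AGAP2 and AGAP3 had 1.06, -0.44 and 0.34, and GOLGA2 1.32. Whether a copy differed from its relative was not tested, since the copies were chosen for their folds. Without ORC1 IP 2, 11 of the 19 passed, among them SMG1 at 2.39, RANBP2 at 2.48 and AGAP1 at 1.58. Over all genes, 1961 of 16356 passed as higher in that fit, against 376 of 16513 with all libraries.

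**Figure D4:**
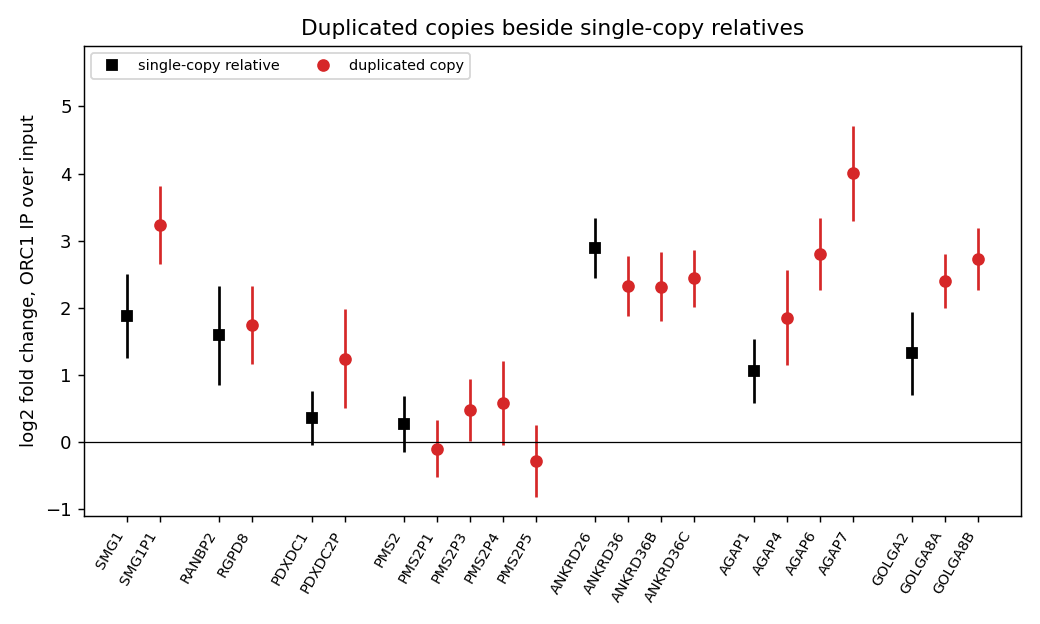
Log2 fold change of ORC1 IP over input (y axis, log2(normalised count + 1) scale) for single-copy relatives (black squares) and the tested duplicated copies related to each (red circles), with standard errors from limma over 3 libraries per group. SMG1P1 at 3.23 lies above SMG1 at 1.88, PMS2 and its pseudogenes lie around 0, and ANKRD26 at 2.89 lies above the 3 ANKRD36 copies.

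The calls of members rested on few libraries. Leaving out 1 library left a positive fold change in 35 of 39 tested duplicated members (without ORC1 IP 2) to 41 of 43, and the median of all tested members stayed between 1.89 and 2.18. The number that passed moved more, from 21 to 2 without ORC1 IP 3, to 9 without input 2 and to 0 without input 3. Over all genes, 376 passed as higher with all libraries and 4 without input 3.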

How the data were processed

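RNA of 3 input and 3 ORC1 IP libraries of HCT116 nuclei was sequenced by the authors with a total RNA kit after depletion of ribosomal RNA. According to the submitters' processing notes and the methods of the study, reads were trimmed with Trimmomatic, aligned with STAR to hg19 (GRCh37) and counted per gene with featureCounts, and DESeq2 was run with input as the reference. Settings for multiple mapping and strand: not given in the sources used here.

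The authors' deposited values per library are a signal, in which each library's gene counts had been divided by its DESeq2 size factor. All values (100%) were whole multiples of what 1 read is worth in their library, within a tolerance of 0.001, so that whole reads were recovered. The authors' own fold changes and p-values in the same table were not used.

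From these values, log2(normalised count + 1) was tested with limma 3.58.1 (R 4.3.3, intensity trend, no block, two-sided, Benjamini-Hochberg adjustment over all 16513 genes that averaged 10 or more normalised counts, threshold 0.05). Family sums were compared as log2(sum + 1). Input and ORC1 IP libraries of the same replicate number belong to the same RIP experiment by their labels, but the deviations from group means of libraries with the same number correlated at -0.322, -0.240 and 0.215 for replicates 1, 2 and 3, so the replicate block was used only as an alternative. The fit was tested on simulated counts first.

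Members and gene lists were chosen with earlier results of these data known. Genes named by rule were, in each family, the member with the highest mean and those with the highest and lowest fold change, all tested members of families of 3 or fewer, and members at 0 in all inputs. The other members were named for completeness after their values were seen. Positions, lengths and transcript sequences are those of GENCODE v44 (GRCh38), matched by Ensembl identifier, not of the hg19 annotation used for counting. Of the 51 matched members, 22 overlap another gene of the table. Alternatives were pseudocounts of 0.5 and 5, no count minimum and a minimum of 50, TMM, upper-quartile and total-count scaling, edgeR 4.0.16 and DESeq2 1.42.0 on recovered reads, the replicate block, and leaving out each library.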

Additional observations from a re-analysis of the deposited data

How the results depend on the processing

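Directions of the family medians and sums held under every alternative run except for PMS2P. Scaling by total count, which moved the median of all genes from 0.01 to -0.19, turned the PMS2P median to -0.017 and its sum to -0.048, LRRC37A16P to -0.060 and NBPF3 to -0.037. It also gave medians of 2.36 for GOLGA8 and 2.11 for ANKRD36, and sums of 2.29 and 2.13, with 88 genes higher and 98 lower in all, 5 members, and 1 gene of the other duplicated families. With DESeq2, 1267 genes were higher and 688 lower, including 9 relatives and 11 genes of other duplicated families, and the RGPD median was 1.10. Without a count minimum the GOLGA8 and RGPD medians were 2.13 and 0.88, since low copies entered. With a minimum of 50, 13 members passed. With a pseudocount of 5 the median of tested members was 1.59 and that of NPIP 2.53. Members that shared under 50% of stretches had a median of 1.28.

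Leaving out 1 library gave 4 to 1961 genes higher and 20 to 1059 lower. The extremes were without input 3 (4 and 20) and without ORC1 IP 2 (1961 and 1059), against 376 and 234. Members called ranged from 0 to 27, relatives from 0 to 11 and other duplicated families from 0 to 10. Medians ranged from 1.97 to 2.61 for ANKRD36, 2.23 to 2.70 for GOLGA8, 1.36 to 2.09 for RGPD and -0.076 to 0.33 for PMS2P, and sums from 2.09 to 2.61 for ANKRD36, 2.27 to 2.64 for GOLGA8, -0.0071 to 0.30 for PMS2P, 1.33 to 3.02 for TBC1D3F, 0.53 to 1.97 for PDXDC2P, 2.34 to 3.15 for AGAP4 to AGAP8 and 3.18 to 3.93 for NPIP. LRRC37A16P ranged from -0.21 to 0.51 and PMS2P1 from -0.27 to 0.12. The cause of these changes was not tested.

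With the replicate block, which takes the pairing of the labels as given, 433 genes were higher and 191 lower, and the 21 members called without it remained 21 in number, with 4 relatives and 5 genes of other duplicated families, against 3 and 4. Of all members, 19 had fewer than 10 input reads in total and 15 were at 0 in at least 1 input, so that single copies of low families are known from few reads.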

Other observations

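Other families of recent duplications lie outside the symbol rule. A list of such families took 68 genes by symbol, including a few single-copy genes that only share a prefix, such as SMNDC1 and DPY19L1. Of these, 50 were tested, with a median log2 fold change of 0.68, and 4 passed as higher and 0 as lower. The shares over all genes tested were 2.28% and 1.42%. HERC2P2, HERC2P3 and HERC2P9 are pseudogenes of HERC2, a ubiquitin ligase gene, on chromosome 15 as are GOLGA8A and GOLGA8B. HERC2P2 was at 158, 82.0 and 37.4 in the inputs and 798, 1157 and 509.8 in the ORC1 IPs, a fold change of 3.29 ± 0.51 (SE) (limma, adjusted p = 0.00936). HERC2P3 was at 15.8, 14.2 and 18.7 in the inputs and 153, 142 and 83.5 in the ORC1 IPs, with 2.84 ± 0.47 (SE) (limma, adjusted p = 0.0112). HERC2P9 was at 35.9, 26.8 and 24.6 in the inputs and 243, 309 and 168 in the ORC1 IPs, with 2.98 ± 0.43 (SE) (limma, adjusted p = 0.00799). PKD1P6, a pseudogene of the polycystin gene PKD1 on chromosome 16, was at 42.2, 42.6 and 38.6 in the inputs and 248, 181 and 131 in the ORC1 IPs, with 2.11 ± 0.42 (SE) (limma, adjusted p = 0.0232). Every ORC1 IP lay above every input in these 4, as in 18 of the 50 tested and 12.7% of all genes tested. All 4 calls were lost without input 3, with limma adjusted p of 0.0644, 0.0713, 0.0644 and 0.175 for HERC2P2, HERC2P3, HERC2P9 and PKD1P6. PKD1P6 also missed the threshold without input 2 (0.0849), ORC1 IP 1 (0.0633) or ORC1 IP 3 (0.0588). Scaling by total count left only HERC2P2 past the threshold. These families were listed with earlier results of these data known, so that they are no independent set.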
